A study of Mus musculus with 8 samples.

Results

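The gene segments of the T-cell receptor loci were examined for 5-hydroxymethylcytosine (5-hmC) in the DNA of sorted pro-B cells. 5-hmC is an oxidised form of methylated cytosine, and TET enzymes produce it. A member is a gene whose symbol starts with Tra, Trb, Trd or Trg and whose type in the GENCODE M21 annotation of GRCm38 is a T-cell receptor gene. The rule gave 258 members of the 55413 annotated genes on chromosomes 1 to 19, X and Y. They are 170 V, 4 D, 80 J and 4 constant genes, and 44 of them are pseudogenes. By chain, 189 belong to Tra, 53 to Trb, 11 to Trd and 5 to Trg. A further 12 T-cell receptor genes carry other symbols, among them 10 of the Trg locus that are named Tcrg-. These are no members, but they were used to set the ends of the locus and are described beside it.

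The DNA came from 4 libraries of hMeDIP-seq, in which sheared DNA that carries 5-hmC is pulled down with an antibody and sequenced. Pro-B cells (B220+CD43+IgM-) were sorted from the bone marrow of C57BL/6 mice between 4 and 6 weeks old. The HDAC7-deficient group (2 libraries) was Hdac7 fl/-, with the floxed copy deleted in B-lineage cells by a Cre recombinase under control of the mb1 (Cd79a) gene, and the group called wild-type (2 libraries) held Hdac7+/- littermates, so both groups lack 1 copy of Hdac7 in every cell. The labels do not say whether a library came from 1 mouse or from several, so a test over libraries measures their spread alone, which may be technical. The lists hold positions of peaks and no measure of RNA, so the labelled cell type could not be checked against its markers.

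The lists held between 1305200 and 1414862 peaks per library, and median peak widths of 146 to 172 bp. They give no height, score or count, and the sequencing depth is unknown. Values for the libraries are given in the order wild-type 1, wild-type 2, HDAC7-deficient 1, HDAC7-deficient 2. "Bases under peaks" is the share or the number of bases of a stretch that lie inside a peak. Genotypes were compared with an exact permutation test, in which 4 libraries allow 6 assignments, and loci or classes within a library with an exact sign-flip permutation test over 16 sign patterns. Both were two-sided. The first cannot give a p below 0.333 and the second cannot go below 0.125, so no difference described here could pass a threshold of 0.05, and the values of the single libraries show the spread.

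A T-cell receptor is a pair of chains, alpha with beta or gamma with delta. Each chain's variable part is joined in developing T cells from a V, a J and, for beta and delta, a D segment. The RAG recombinase cuts the DNA at the edges of these segments, and the segment ends are then joined. The constant gene that follows encodes the rest of the chain. RAG cuts at a recombination signal, a heptamer that touches the segment and a nonamer that a spacer of about 12 or 23 bases separates from it. B cells assemble their immunoglobulin genes with the same enzyme and the same kind of signal, and do not normally complete the rearrangement of T-cell receptor loci. The Trd genes lie inside the Tra locus, between the Trav and the Traj segments.

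The 4 D segments show this layout in the shortest form. They are printed on the plus strand of GRCm38 (RefSeq sequence), with the heptamers and nonamers that were found in capitals. They are shown because the results at segment edges turn on such signals. The motifs sought were CACAGTG, with at most 1 mismatch outside its first 3 bases, and the best match to ACAAAAACC after it. On the side that lies before the segment both read in reverse complement. No heptamer of this kind was found after Trdd1.

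Trbd1, chr6:41533173-41533251: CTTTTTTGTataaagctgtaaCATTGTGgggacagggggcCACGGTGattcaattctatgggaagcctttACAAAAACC
Trbd2, chr6:41542135-41542215: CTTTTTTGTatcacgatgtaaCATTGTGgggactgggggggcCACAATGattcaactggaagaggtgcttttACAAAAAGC
Trdd1, chr14:54113440-54113517: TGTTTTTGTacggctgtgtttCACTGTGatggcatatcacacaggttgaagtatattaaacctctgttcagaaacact
Trdd2, chr14:54122198-54122280: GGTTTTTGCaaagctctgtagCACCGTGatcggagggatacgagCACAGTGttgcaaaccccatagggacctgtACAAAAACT

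None of the 4 D segments themselves had a base under a peak in any library, and the peaks near them lay in the 2 kb on either side. The segments are only 11 to 16 bases long, so this absence says little.

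The 3 loci were first taken whole, from the first to the last segment. The Tra/Trd locus (chr14:52427928-54224206) held 670, 712, 727 and 833 peaks. That is 37.3, 39.6, 40.5 and 46.4 peaks per 100 kb, and the ratio of HDAC7-deficient to wild-type means was 1.13 ± 0.119 (propagated SD, n = 2 and 2, exact permutation p = 0.333, adjusted over the 3 loci 0.5). The groups did not overlap in this count, but the rest of chromosome 14 had the same order, with 47.8, 52.6, 52.7 and 52.9 peaks per 100 kb. In bases the groups overlapped, with 6.78%, 7.77%, 6.86% and 10.4% under peaks, and HDAC7-deficient replicate 2 alone was high. Without that library the ratio in bases fell from 1.19 to 0.942.

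The Trb locus (chr6:40891229-41558452) held 327, 369, 343 and 363 peaks, or 49.0, 55.3, 51.4 and 54.4 per 100 kb. The Trg locus (chr13:19178024-19352756) held 88, 92, 94 and 97 peaks, or 50.4, 52.7, 53.8 and 55.5 per 100 kb. The ratio between genotypes was 1.01 ± 0.0956 at Trb (exact permutation p = 1, adjusted 1) and 1.06 ± 0.0408 at Trg (exact permutation p = 0.333, adjusted 0.5). The groups did not overlap in the Trg count, and the rest of chromosome 13 did not have this order, with 51.1, 55.3, 56.1 and 51.7 peaks per 100 kb. In bases the groups overlapped at both loci. Trb had 8.90%, 10.6%, 8.39% and 10.3% under peaks and Trg had 8.72%, 9.94%, 9.08% and 10.2%. Divided by the rest of chromosome 13, the Trg bases stood at 0.945, 0.931, 0.991 and 1.01 and kept the groups apart (exact permutation p = 0.333, adjusted 0.5).

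Set against the rest of its own chromosome in the same library, the Tra/Trd locus was poor in peaks in all 4 libraries. Its density was 0.780, 0.754, 0.768 and 0.877 times that of the rest of chromosome 14 (exact sign-flip permutation p = 0.125, the smallest the design allows, adjusted over the 3 loci 0.375). Against the 1 Mb on each side of the locus the factor was 0.582, 0.598, 0.556 and 0.737. Trb stood at 0.960, 0.991, 0.918 and 1.05 times the rest of chromosome 6 (exact sign-flip permutation p = 0.5), and Trg at 0.986, 0.952, 0.959 and 1.07 times the rest of chromosome 13 (exact sign-flip permutation p = 0.875). These loci were on both sides of 1.

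**Figure D1:**
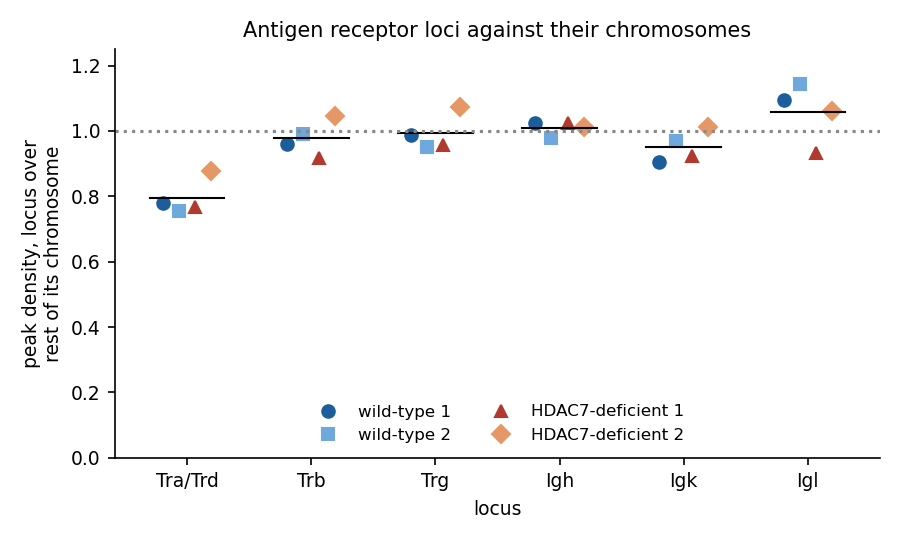
Peak density of each antigen receptor locus divided by that of the rest of its chromosome in the same library (vertical axis, ratio), for the 3 T-cell receptor and the 3 immunoglobulin loci; points are libraries, the bar is the mean of 4 and the dotted line marks 1. The 4 points of Tra/Trd lie between 0.754 and 0.877, and those of the other loci between 0.905 and 1.14.

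The immunoglobulin loci, which B-lineage cells rearrange, were the most alike for comparison (395 genes). As a group they held 48.4, 53.6, 53.2 and 52.0 peaks per 100 kb, against 41.1, 44.5, 44.1 and 49.0 in the 3 T-cell receptor loci together. The T-cell receptor density was 0.850, 0.830, 0.829 and 0.943 times the immunoglobulin density (exact sign-flip permutation p = 0.125, lower in 4 of 4 libraries). Outside soft-masked repeats, with peaks placed by their midpoint, the mean ratio was 0.915 and 3 of 4 libraries lay below 1 (exact sign-flip permutation p = 0.25). The low value came from Tra/Trd, since Trb and Trg each lay above the immunoglobulin density in 3 of 4 libraries. The Igh, Igk and Igl loci had 0.978 to 1.02, 0.905 to 1.01 and 0.933 to 1.14 times the peak density of their own chromosomes, and the ratio of Tra/Trd was the lowest of the 6 loci in each library.

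The missing peaks of Tra/Trd fell in a pair of stretches. In C57BL/6 mice the central Trav genes exist in 3 copies, an original array and the copies whose symbols carry a d or an n. Over the d block (Trav7d-2 to Trav15d-3, 398.557 kb) 2.69%, 3.74%, 2.48% and 3.71% of bases lay under peaks. Over the n block (Trav7n-4 to Trav15n-3, 283.934 kb) the values were 2.41%, 2.51%, 2.21% and 3.51%. The array before them (Trav1 to Trav6-2) had 10.1%, 12.8%, 9.77% and 14.9%, and the one after them (Trav7-2 to Trdv4) had 9.13%, 9.61%, 9.41% and 15.7%. Both blocks lay under both arrays in each of the 4 libraries.

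The longest stretch of the locus without a peak in any of the 4 libraries ran for 115.609 kb and took in 14 segments, from Trav7n-5 to Trav13n-2. The next ran for 71.783 kb and took in 10, from Trav3d-2 to Trav14d-2. The longest such stretch was 36.382 kb in Trb, with no segment in it, and 5.953 kb in Trg. On the rest of chromosome 14, outside runs of unknown bases, 8 stretches without a peak were at least as long as the longest of Tra/Trd.

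Reads from identical copies cannot be assigned to one of them, and whether the authors kept such reads is not stated. The share of bases inside a 50-base word that occurs more than once in the locus, on either strand, was therefore measured. It was 86.9% in the d block and 89.3% in the n block, against 22.4% from Trav1 to Trav6-2 and 39.6% from Trav7-2 to Trdv4. In these repeated bases of the whole locus (53.3% of it) 3.19%, 4.06%, 3.32% and 5.75% lay under peaks, and in all other bases 10.9%, 12.01%, 10.9% and 15.7%. The same split gave 4.48%, 5.15%, 4.31% and 4.80% against 10.1%, 12.1%, 9.47% and 11.7% in Trb. In Trg it gave 7.67%, 9.14%, 7.74% and 7.63% against 9.14%, 10.3%, 9.61% and 11.2%. The part of read mapping in the low values was not tested.

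**Figure D2:**
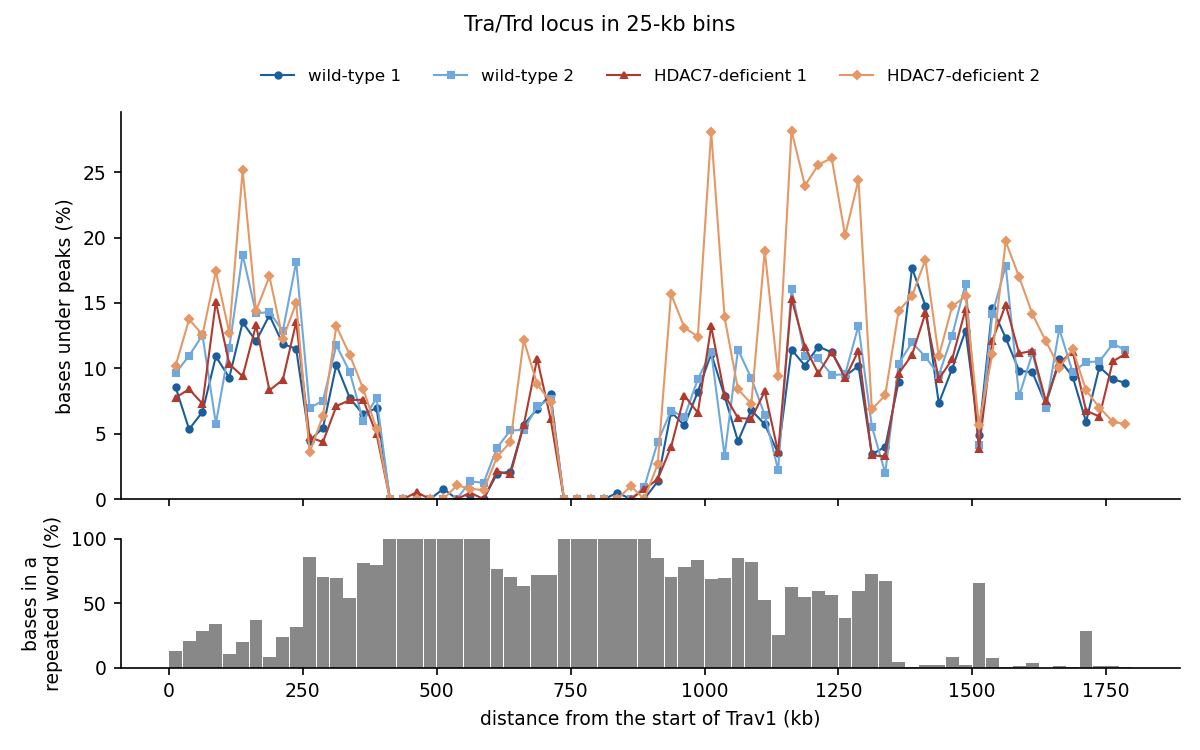
Share of bases under peaks in 25-kb bins along the Tra/Trd locus (upper panel, 1 line per library) and share of bases inside a repeated 50-base word (lower panel), against the distance from the start of Trav1 in kb. The bins near 0 lie where the repeated share is close to 100%, and in most bins between about 900 and 1300 kb HDAC7-deficient replicate 2 runs above the other 3 libraries.

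Of the 258 members with 2 kb on each side, 156 had a base under a peak in all 4 libraries, 54 in some of them and 48 in none. All 48 without a peak were Trav segments, 23 with a d in their symbol, 21 with an n and 4 others (Trav6-6, Trav11, Trav13-3 and Trav13-4-dv7). The repeated share of their windows was at least 94.9% in the d segments, 98.9% in the n segments and 95.7% in the others. Among the 57 Trav segments with a repeated share of 90% or more, 48 had no peak in any library and 2 had one in all 4. Among the 13 with a share under 10%, each had peaks in all 4 libraries, with a median of 619 bases under peaks averaged over the libraries. Over all 128 Trav segments Spearman's rho between the repeated share and the mean bases under peaks was -0.85, a description only, since the segments share the same 4 libraries and the windows of neighbours share peaks.

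**Figure D3:**
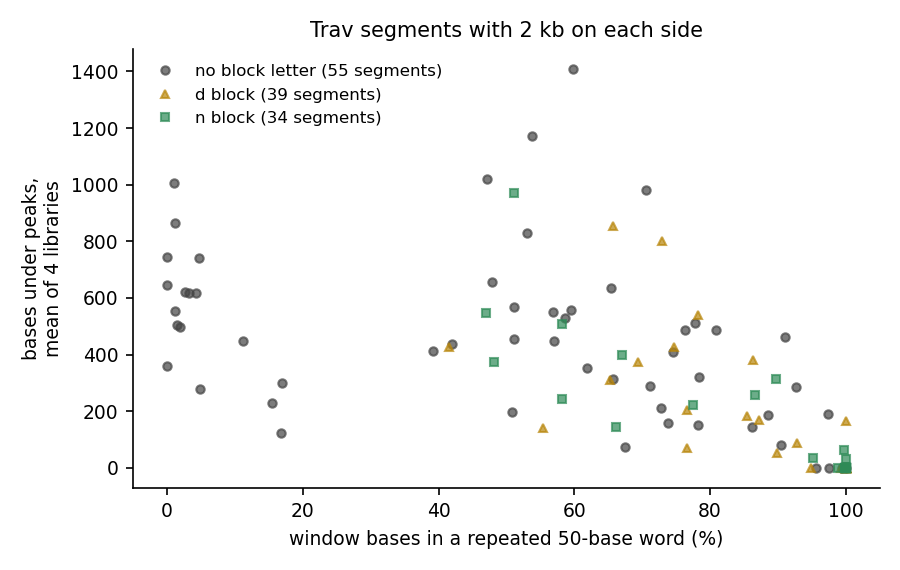
Mean bases under peaks of 4 libraries (vertical axis) against the share of window bases in a repeated 50-base word (horizontal axis, %) for the 128 Trav segments with 2 kb on each side, by block letter. The points at 0 bases gather above 94.9% repeated bases, and no segment under that share is at 0.

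For 31 Trav genes the original, the d copy and the n copy could be matched by number. In 20 of these trios the d window shared at least 86.6% of its 50-base words with the n window, and in 18 of the 20 neither copy had a peak in any library, while 19 of the 20 originals had one. In the other 11 trios, whose d and n windows shared at most 52.7% of words, every trio had a peak at the d or the n copy. Trav5-4, the Trav segment with the most bases under peaks, shows the first kind. Its window had 1222, 1536, 997 and 1876 bases under peaks, and those of Trav5d-4 and Trav5n-4 had 0 in each library. The windows differ in sequence, since 34.0% of the words of the Trav5-4 window occur in the d window and 34.9% in the n window. Over the 31 trios the median share of the original's words found in the d window was 26.4%. In the Trav5-4 segment itself 0, 0, 0 and 15 bases lay under peaks. The last 100 bases up to the end of the recombination signal differ at 1 base between Trav5-4 and either copy, and at 0 between the copies. They are printed on the plus strand with the heptamer and nonamer in capitals.

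Trav5-4, chr14:53704454-53704553: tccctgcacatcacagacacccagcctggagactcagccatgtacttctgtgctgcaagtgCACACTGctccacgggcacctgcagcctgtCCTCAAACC
Trav5d-4, chr14:53002172-53002271: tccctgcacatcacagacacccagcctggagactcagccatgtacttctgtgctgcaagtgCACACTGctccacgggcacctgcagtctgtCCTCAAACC
Trav5n-4, chr14:53313362-53313461: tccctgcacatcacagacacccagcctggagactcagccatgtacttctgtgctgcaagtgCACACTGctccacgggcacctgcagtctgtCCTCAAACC

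Trav14-3 shows the second kind. Trav14-3 had 395, 446, 392 and 709 bases under peaks, its d copy Trav14d-3-dv8 had 416, 919, 252 and 1612, and its n copy Trav14n-3 had 1024, 526, 522 and 1809. All 3 were highest in HDAC7-deficient replicate 2, and HDAC7-deficient replicate 1 was lowest in each.

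By segment class, with 2 kb on each side and overlapping windows merged, V windows were the poorest in peaks in 3 of 4 libraries, and J windows in HDAC7-deficient replicate 2. The merged V windows had 6.68%, 7.09%, 5.50% and 9.05% of bases under peaks, D windows 13.2%, 14.1%, 13.03% and 15.4%, J windows 8.15%, 11.002%, 7.86% and 7.32%, and constant gene windows 16.3%, 18.6%, 13.2% and 13.1%. Constant windows were richer than V windows in 4 of 4 libraries (mean ratio 2.17, exact sign-flip permutation p = 0.125) and richer than J windows in 4 of 4 (mean ratio 1.79, exact sign-flip permutation p = 0.125). J windows were richer than V windows in 3 of 4 (mean ratio 1.22, exact sign-flip permutation p = 0.375), with HDAC7-deficient replicate 2 the exception. These tests are 3 of a family of 7 ratios between classes, none of which could pass after adjustment. The D and constant classes have 4 members each.

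In bases outside the repeated words the V windows rose to 11.2%, 12.6%, 9.31% and 14.4%, above the J windows (8.53%, 11.6%, 8.24% and 7.58%) in all 4 libraries, so the order of V and J depended on the copied stretches. The constant windows hardly moved (16.3%, 18.6%, 13.2% and 12.4%).

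**Figure D4:**
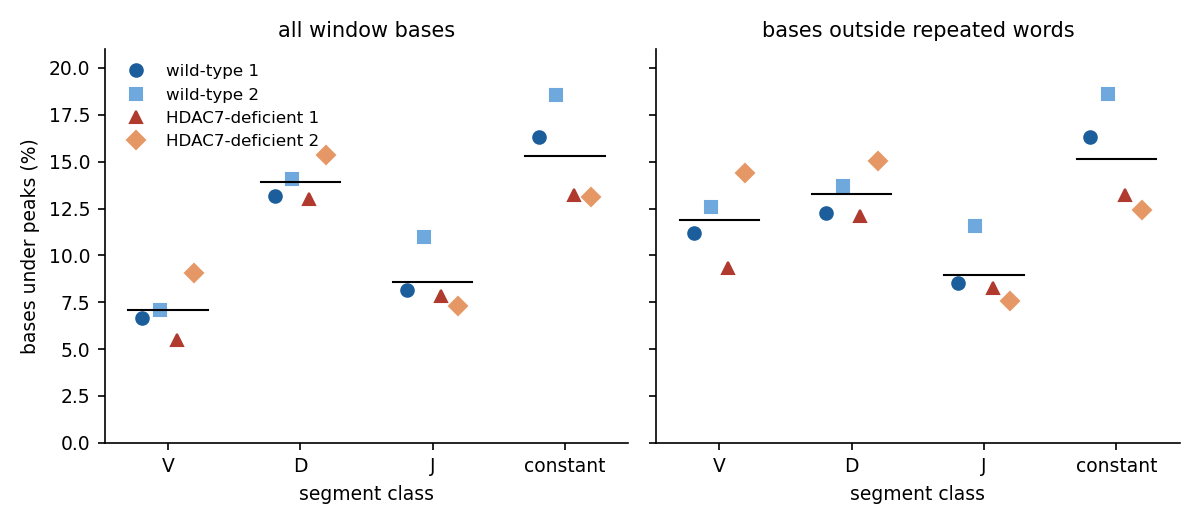
Share of bases under peaks (vertical axis, %) by segment class, with 2 kb on each side of each segment and overlapping windows merged; left, all window bases, right, bases outside repeated 50-base words. Points are libraries and bars the mean of 4; On the left V is lowest in every library but HDAC7-deficient replicate 2, and on the right V lies above J in all 4.

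Between genotypes, the J and the constant windows had lower values in each HDAC7-deficient library than in either wild-type one. The ratio of means was 0.792 for J and 0.756 for constant genes (exact permutation p = 0.333 for each), with differences of -1.99 and -4.25 percentage points against a spread between replicates (pooled SD, n = 2 and 2) of 1.45 and 1.13. Within chains the order of J was not shared. The groups overlapped in the Tra J window (8.99%, 11.7%, 9.09% and 6.51%), in the Trb J windows (13.2%, 19.3%, 11.4% and 20.9%) and in the Trg J windows (1.65%, 4.27%, 2.86% and 5.20%). Only the windows of the 2 Trd J segments kept apart, with 7.35%, 7.71%, 2.85% and 0%. Among the constant genes only Trbc1 kept apart, as its values below show. For V and D the groups overlapped, with ratios of 1.06 and 1.04 (exact permutation p = 1 for each), and the V ratio was 0.799 without HDAC7-deficient replicate 2 (exact permutation p = 0.333 with 2 libraries against 1, again the smallest possible).

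V segments encode most of the variable domain. Around the start of the 50 V segments with less than 10% repeated bases in their windows, peaks were sparse over the segment itself, though not there alone. The first 500 bases had 6.99%, 9.13%, 4.66% and 6.16% under peaks, and the 250 bases before the start had 5.94%, 9.94%, 3.42% and 4.42%. From 500 to 3000 bases downstream the share was 13.5%, 15.2%, 10.5% and 13.5%. Single steps of 250 bases further out were about as low as the segment. The mean of 4 libraries was 7.37% from 2750 to 2500 bases upstream and 7.54% from 2500 to 2750 bases downstream. It was 7.48% in the first 250 bases of the segment and 5.99% in the next 250. The first 500 bases stood at 0.628, 0.693, 0.539 and 0.530 times the whole profile of 3000 bases on each side (lower in 4 of 4 libraries, exact sign-flip permutation p = 0.125). CpG sites, where most 5-hmC of mammalian DNA lies, were denser in the first 500 bases (8.56 per kb) than in the whole profile (5.81 per kb). Soft-masked repeats were also fewer over the segment, at 9.06% of bases in the first 500 against 29.2% from 500 to 3000 bases downstream. They did not follow the peaks along the whole profile. From 2750 to 3000 bases downstream 43.1% of bases were masked and a mean of 8.30% lay under peaks. The part of repeats in the dip was not tested.

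**Figure D5:**
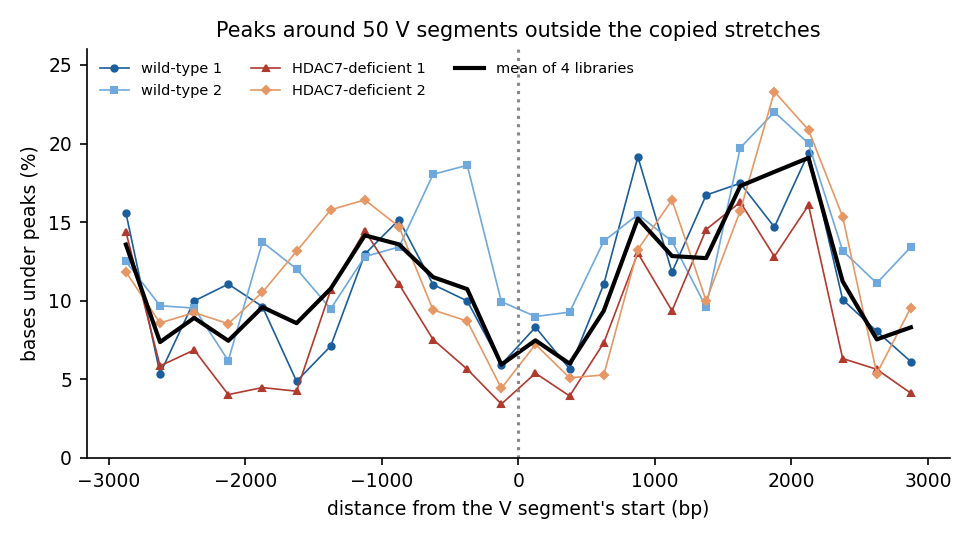
Share of bases under peaks (vertical axis, %) in steps of 250 bp around the start of 50 V segments with less than 10% repeated bases (horizontal axis, bp, in the direction of the segment), 1 thin line per library and the mean of 4 in black. The mean is 5.93% in the step before the start and 19.1% between 2000 and 2250 bp after it. Between 2500 and 2750 bp after the start it is 7.54%.

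Among the named Trav segments, Trav5-4 was followed by Trav5-2, a pseudogene, with 721, 1241, 973 and 1755 bases under peaks, and Trav4-3 with 629, 1055, 1111 and 1282. HDAC7-deficient replicate 2 was the highest at all 3. They lie in the Trav7-2 to Trdv4 array, where that library had 15.7% of bases under peaks against 9.13% to 9.61% in the other 3. Divided by the rest of chromosome 14 in the same library, the array stood at 1.05, 0.953, 1.09 and 1.46. Of the 65 bins of 25 kb with a peak in the Tra/Trd locus, that library was the highest in 39, wild-type 2 in 19, wild-type 1 in 5 and HDAC7-deficient replicate 1 in 2. The array was therefore rich in peaks in 1 HDAC7-deficient library and not in the other.

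In Trb the V segments richest in peaks were Trbv1, with 1384, 1887, 864 and 1406 bases under peaks, Trbv16, with 1392, 599, 963 and 1133, and Trbv29, with 711, 1560, 625 and 654. The groups overlapped at Trbv1 and Trbv16. At Trbv29 both HDAC7-deficient values lay under both wild-type ones by 57 bases, and wild-type 2 alone was high. The Trb V windows together had 10.5%, 12.6%, 8.57% and 10.03% under peaks, higher than the Tra V windows (5.44%, 5.17%, 4.51% and 8.80%) in 4 of 4 libraries (exact sign-flip permutation p = 0.125). Outside repeated words the order did not hold, with 10.7%, 12.9%, 8.71% and 10.2% against 11.6%, 11.5%, 9.80% and 18.9%. In Trd the leading V segments were Trdv5 (985, 1246, 658 and 922 bases), the pseudogene Trdv3 (570, 1170, 503 and 620) and Trdv1 (699, 656, 620 and 263). Trgv2, the only V member of Trg, had 437, 972, 594 and 423.

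Trbv31 and Trdv5 lie behind the constant genes in reverse orientation, and are joined by inversion of the DNA between. Trbv31 had 440, 326, 566 and 0 bases under peaks, with none in HDAC7-deficient replicate 2. Trdv5 had both HDAC7-deficient values under both wild-type ones, by a gap of 63 bases.

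The functional V segments and V pseudogenes did not stand apart. Windows of the 136 functional V segments had 6.49%, 7.02%, 5.37% and 9.05% of bases under peaks, and those of the 34 pseudogenes 6.95%, 7.57%, 6.09% and 8.34% (exact sign-flip permutation p = 0.5).

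D segments, the short middle pieces of the beta and delta chains, differed among themselves. Trbd1 had 335, 486, 606 and 999 bases under peaks within 2 kb, with both HDAC7-deficient values above both wild-type ones by a gap of 120 bases. Trbd2 had 762, 1150, 588 and 822, with no such order. Trdd1 had 547, 0, 569 and 339, and Trdd2 had 471, 625, 329 and 307, where both HDAC7-deficient values lay under both wild-type ones by 142 bases. The window of Trdd2 overlaps that of Trdj1, so the 2 can share bases under peaks. The Trbd1 cluster with its J segments (Trbd1 to Trbj1-7, 2.487 kb) had 13.5%, 19.5%, 24.4% and 32.6% of bases under peaks and the Trbd2 cluster (Trbd2 to Trbj2-7, 1.694 kb) 12.3%, 35.2%, 14.2% and 19.1%. These stretches hold 1 to 4 peaks per library.

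J segments join to V or D and their windows overlap, so the 80 J members make 9 merged windows and share peaks. The 60 Traj segments form 1 merged window. From Traj61 to Traj1 there were 44, 32, 38 and 26 peaks and 9.21%, 11.95%, 9.38% and 6.92% of bases under them, so HDAC7-deficient replicate 2, the highest over the V array, was the lowest here. Relative to the rest of chromosome 14 the values were 1.06, 1.19, 1.08 and 0.641. The leading J segments were Traj23 (556, 966, 836 and 288 bases), Trbj1-6 (864, 1188, 865 and 1356), Trdj1 (596, 625, 171 and 0) and Trgj3 (194, 327, 186 and 568). The Trb J windows had 13.2%, 19.3%, 11.4% and 20.9% under peaks and were richer than the Tra J window in 4 of 4 libraries (mean ratio 1.77, exact sign-flip permutation p = 0.125).

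Constant genes encode the part of the chain that anchors it in the membrane. Trdc (chr14:54142851-54148868) had 1355, 2301, 1353 and 1803 bases under peaks with its 2 kb on each side, Trac (chr14:54220521-54224206) 1698, 979, 1139 and 421, Trbc1 (chr6:41538218-41539881) 1295, 1647, 831 and 1246, and Trbc2 (chr6:41546730-41548352) 379, 453, 513 and 336. At Trbc1 both HDAC7-deficient values lay under both wild-type ones, by 49 bases, and at the other 3 the groups overlapped. Inside Trdc a Tra/Trd region of 471 bp (chr14:54144331-54144801) had a peak in all 4 libraries, with 370, 394, 413 and 387 bases under peaks.

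Enhancers of the loci lie in known intervals near the constant genes. From Trac to Dad1, the neighbour of Tra that encodes a subunit of oligosaccharyltransferase, there were 12, 13, 17 and 9 peaks in 11.272 kb, with 28.4%, 15.4%, 19.1% and 19.8% of bases under them. This was 1.53 to 3.26 times the rest of chromosome 14, and the interval has 20.6 CpG per kb. Trdj2 to Trdc had 0, 1, 5 and 1 peaks in 6.013 kb. From Trbc2 to Trbv31 there were 8, 6, 9 and 5 peaks in 9.338 kb (12.8%, 10.1%, 11.6% and 8.95% of bases). The 10 kb downstream of Tcrg-C1 had 974, 488, 896 and 62 bases under peaks, of Tcrg-C2 720, 1130, 779 and 688, of Tcrg-C3 1238, 1572, 885 and 979, and of Tcrg-C4 989, 445, 666 and 279. Downstream of Tcrg-C3 both HDAC7-deficient values lay under both wild-type ones. HDAC7-deficient replicate 2 was the lowest downstream of Tcrg-C1, Tcrg-C2 and Tcrg-C4.

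In 22 members both HDAC7-deficient values of bases under peaks exceeded both wild-type values, and in 36 both were smaller, which is 8.53% and 14.0% of the 258. Among all annotated genes with 2 kb on each side these patterns held for 11.7% and 15.6%, and among the 31009 genes shorter than 5 kb for 12.7% and 14.6%. The 48 members without a peak cannot show either pattern. Of the 210 members with a peak the shares were 10.5% and 17.1%. Genes without a peak were not taken out of the background, so these shares have no like background to stand beside. By number of peaks 21 members were higher and 10 lower (8.14% and 3.88%), against 8.8% and 7.77% of the genes shorter than 5 kb. Of the 36 with fewer bases 17 were J segments, 16 of them Traj segments whose windows overlap. Leaving out any 1 library raised each of these counts to between 33 and 83, since 1 library against 2 sets a weaker condition.

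The 3 segments with the widest gap upwards were Trav6d-5 (511, 614, 1056 and 1236 bases), Trav9-2 (252, 190, 553 and 1050) and Trav9d-1 (183, 221, 517 and 605). Trav6d-5 and Trav9d-1 are neighbours whose windows overlap, so they share bases under peaks. Downwards they were Trdj1 (596, 625, 171 and 0), Traj50 (713, 971, 257 and 383) and Trav17 (647, 918, 356 and 291). The window of Trdj1 overlaps that of Trdd2, so their lower values are not separate cases. The gaps of 296 to 442 bases upwards and 291 to 425 bases downwards chose these segments and carry no test. The upward ones are Trav segments with 65.7% to 86.3% repeated bases, while at most 2.10% of bases are repeated at the downward ones.

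Joined across libraries, the peaks of the 3 loci made 2253 regions. Of these 292 (12.96%) had a peak in all 4 libraries and 1198 (53.2%) in 1 alone. Gained regions, which had peaks in each HDAC7-deficient but no wild-type library, numbered 75 (3.33%), and lost regions, the reverse, 46 (2.04%). In the whole genome 2.92% of regions were gained and 2.41% lost. Gained and lost regions were 49 and 24 of 1394 in Tra/Trd (3.52% and 1.72%). They were 21 and 18 of 665 in Trb (3.16% and 2.71%), and 5 and 4 of 194 in Trg (2.58% and 2.06%). With only peaks of at least 200 bp the gained regions fell to 46. Both counts rested on each library, since a region then needs 1 library fewer. Without wild-type 1, wild-type 2, HDAC7-deficient 1 and HDAC7-deficient 2 in turn the gained regions numbered 236, 152, 460 and 358, and the lost ones 465, 267, 110 and 109.

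The gained and the lost region nearest to a Tra segment are printed to show what such regions are, on the plus strand with CpG in capitals. The gained one overlaps Trav7d-3 and its exon, with 164 and 22 bases under peaks in HDAC7-deficient 1 and 2. The lost one lies 31 bases from Trav6-2 in no annotated gene, with 175 and 219 bases in wild-type 1 and 2.

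Gained at Trav7d-3, chr14:52744167-52744339: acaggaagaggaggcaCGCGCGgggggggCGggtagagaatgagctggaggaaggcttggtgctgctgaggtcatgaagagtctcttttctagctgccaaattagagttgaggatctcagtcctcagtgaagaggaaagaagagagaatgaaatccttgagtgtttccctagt
Lost near Trav6-2, chr14:52667124-52667379: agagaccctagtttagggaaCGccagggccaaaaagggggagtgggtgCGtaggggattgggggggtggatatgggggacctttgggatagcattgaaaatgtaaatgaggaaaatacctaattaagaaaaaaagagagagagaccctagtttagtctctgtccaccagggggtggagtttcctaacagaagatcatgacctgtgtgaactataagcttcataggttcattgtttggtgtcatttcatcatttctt

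Regions shared by all 4 libraries were 193 in Tra/Trd, 81 in Trb and 18 in Trg, and 55, 22 and 2 of them lay within 2 kb of a member. The widest interval under peaks of all 4 libraries measured 417 bp in Tra/Trd, 311 bp in Trb and 312 bp in Trg. These intervals were selected by their width, and their central 300 bases are printed on the plus strand with CpG in capitals. The first lies in a region 651 bases from Trdv5, the second in a region that reaches Trbv13-3, and the third in a region 13052 bases from Trgj1. The printed bases lie in no annotated gene and hold 3, 1 and 1 CpG.

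Tra/Trd, chr14:54150376-54150675: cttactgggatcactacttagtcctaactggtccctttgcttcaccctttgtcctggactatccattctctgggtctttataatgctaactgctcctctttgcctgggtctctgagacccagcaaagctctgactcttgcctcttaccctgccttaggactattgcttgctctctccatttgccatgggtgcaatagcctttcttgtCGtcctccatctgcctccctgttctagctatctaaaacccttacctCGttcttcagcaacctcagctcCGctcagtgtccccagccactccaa
Trb, chr6:41130777-41131076: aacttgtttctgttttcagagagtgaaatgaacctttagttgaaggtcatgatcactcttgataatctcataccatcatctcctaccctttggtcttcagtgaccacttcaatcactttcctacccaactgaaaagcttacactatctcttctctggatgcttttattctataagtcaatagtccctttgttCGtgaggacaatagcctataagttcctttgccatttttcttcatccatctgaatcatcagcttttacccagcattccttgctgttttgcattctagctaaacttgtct
Trg, chr13:19196847-19197146: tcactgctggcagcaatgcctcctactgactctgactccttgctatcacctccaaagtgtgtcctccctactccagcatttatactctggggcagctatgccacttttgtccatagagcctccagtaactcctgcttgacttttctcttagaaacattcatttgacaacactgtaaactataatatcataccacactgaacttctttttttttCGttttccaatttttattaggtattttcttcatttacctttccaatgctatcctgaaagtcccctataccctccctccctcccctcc

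Peaks held about as much CpG as the loci around them or less, with 2 values above the locus among the 12 of 3 loci and 4 libraries. Per kb of peak there were 7.09, 6.63, 6.48 and 6.15 CpG in Tra/Trd, where the locus has 7.26 per kb, a factor of 0.977, 0.913, 0.893 and 0.848 (exact sign-flip permutation p = 0.125). In Trb the factor was 1.02, 0.977, 0.915 and 0.965 and in Trg 0.916, 0.915, 0.910 and 1.05 (exact sign-flip permutation p = 0.375 and 0.25).

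Recombination signals were sought at 258 segment edges (170 of V, 80 of J and 8 of D), in 32 bases around each edge. Edges of pseudogenes were included, and whether RAG can cut each edge was not tested. An exact heptamer was found at 133 edges (51.6%), 111 of V, 20 of J and 2 of D. Among V it was found at 102 of 136 functional segments and at 9 of 34 pseudogenes. Of the non-overlapping 32-base windows of the 3 loci 0.389% hold it. A peak touched 7, 11, 8 and 8 of the 133 heptamers, that is 5.26%, 8.27%, 6.02% and 6.02%. In the windows of all 258 members 7.07%, 7.70%, 6.01% and 8.89% of bases lay under peaks. These measures differ, since a touch needs only 1 base and many windows have no exact heptamer. In 111 no library had a peak on the heptamer, and in 1, that of Trbv1, all 4 had one. The end of Trbv1 is printed with its signal in capitals. Its spacer has 23 bases and its nonamer is an exact match.

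Trbv1, chr6:40891825-40891924: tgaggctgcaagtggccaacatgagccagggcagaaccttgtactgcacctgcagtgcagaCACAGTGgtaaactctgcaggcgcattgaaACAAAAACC

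The region over it (318 bp) had 244, 318, 168 and 178 bases under peaks. Of the 36 exact heptamers in windows with less than 10% repeated bases, peaks touched 5, 7, 6 and 3 (13.9%, 19.4%, 16.7% and 8.33%). No peak in any library touched 24 of them.

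Genes that work with the receptor were set beside its segments. CD3 chains carry the receptor's signal, and Cd3d had 468, 1067, 652 and 477 bases under peaks with 2 kb on each side, Cd3e 1979, 1927, 2603 and 1284, Cd3g 1780, 1344, 1634 and 1202, and Cd247, the zeta chain, 12528, 12299, 9548 and 10804. Ptcra, which pairs with a new beta chain, had 773, 1190, 1336 and 398. Dad1 had 2176, 3413, 2062 and 2965. Of these 6 genes Cd247 alone had both HDAC7-deficient values under both wild-type ones, and at the other 5 the groups overlapped. Among all annotated genes with 2 kb on each side 15.6% had this pattern, so 1 of 6 does not set these genes apart. The 7 trypsin genes that lie inside Trb had 4.84%, 8.41%, 8.09% and 9.17% of window bases under peaks, with a ratio of 1.30 ± 0.509 (exact permutation p = 0.667).

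Of the Trg genes named Tcrg-, the constant genes Tcrg-C1, Tcrg-C3 and Tcrg-C4 had peaks in every library, while Tcrg-C2 had 0, 0, 215 and 98 bases under peaks. The share of repeated bases was 43.1% at Tcrg-C2, against 53.0% at Tcrg-C1, 57.2% at Tcrg-C3 and 0.672% at Tcrg-C4. The 6 V genes of this kind, Tcrg-V1 and Tcrg-V3 to Tcrg-V7, ranged from 82 to 1285 bases. Tcrg-V4, with 449, 855, 219 and 1285, had its extremes in the 2 HDAC7-deficient libraries.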

How the data were processed

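Libraries were prepared by hMeDIP from sorted pro-B cells. According to the methods and labels, the authors trimmed reads (Trim Galore version 0.4.2, Cutadapt version 1.6), aligned them to mm10 (bwa in the methods, Bowtie2 in the labels), removed duplicates with Picard, made RPKM signal with deepTools and called peaks per library with MACS2 bdgpeakcall (cutoff 250, minimum length 10, maximum gap 10). The handling of reads with several equally good positions is not given in the sources used here. Peaks that met input peaks were removed by the authors; whether this came before deposit is not stated. The deposited peak lists hold chromosome, start and end alone, and the authors' read-count comparison was not repeated. The 4 input samples were not analysed here.

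From the lists, the number of peaks and the bases under them were computed per library over each segment with 2 kb on each side (overlap of at least 1 base) and over each locus, with Python 3.11.15, NumPy 2.4.6, pandas 2.3.3, SciPy 1.17.1 and matplotlib 3.10.9, on GENCODE M21 and the RefSeq GRCm38 sequence, which mm10 shares. Repeated bases lie in a 50-base word found again within the locus or 20 kb beside it. The calculations were tested on simulated peaks. Libraries were grouped by their genotype label. Exact permutation and sign-flip tests were used, since a list without counts allows no count model. Named segments were all constant and D genes, the 3 V and 1 J segments of each chain with the most bases under peaks, the 3 with the widest gap between genotypes in each direction and the inverted V segments. Other segments and the printed sequences were chosen after their values were seen. Members and lists were chosen with earlier results of these data known. Counting error cannot be given without counts. The alternatives were other flank widths, peaks of at least 200 bp, merged peaks, peaks by midpoint, an overlap of 50% of the shorter peak, extended loci, division by the rest of the chromosome, bases in place of peak counts, soft-masked or repeated bases left out, functional segments alone, a heptamer with 1 mismatch, a replicate block and each library left out.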

Additional observations from a re-analysis of the deposited data

How the results depend on the processing

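Of the alternatives, 120 gave the same result, 20 turned a direction and 30 moved a count. Here the same means that a ratio kept its side of 1, or that a count stayed within a set factor of its value. The values themselves could change. With peaks of at least 200 bp 29 segments were higher and 30 lower in bases, against 22 and 36 as reported, and both counted as the same. All ratios are HDAC7-deficient over wild-type unless said otherwise. The cause of these shifts was not tested, beyond the weaker condition that 1 library against 2 sets for counts. With peaks of at least 200 bp the density ratio was 0.962 at Trb and 0.986 at Trg, the ratio in bases 0.974 at Trg, the ratio of D windows 0.823, and gained regions numbered 46. The Trb density ratio was 0.972 with peaks within 100 bp merged and 0.993 with 100 kb added to the locus. With 0 kb on each side 7 and 5 segments were higher and lower in bases and 4 and 2 in peaks, and the V ratio was 0.910. With 10 kb 24 segments were lower in peaks and the D ratio was 0.967. Without repeated bases the V ratio was 0.994. D segments with 0 kb gave no value, since no peak lay on them.

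Leaving out 1 library at a time gave ratios in bases of 0.942 to 1.43 at Tra/Trd, 0.860 to 1.05 at Trb and 0.970 to 1.11 at Trg, and a density ratio of 0.957 to 1.08 at Trb. The density of Trg over the rest of its chromosome was 0.965 to 1.01. The V ratio was 0.799 to 1.31 and the D ratio 0.956 to 1.13. Segments higher and lower numbered 48 to 73 and 64 to 83 in bases, and 41 to 58 and 33 to 44 in peaks. Gained regions numbered 152 to 460 and lost regions 109 to 465. The lowest Tra/Trd and V ratios came without HDAC7-deficient replicate 2.

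With the replicate block the density ratios were 1.13, 1.02 and 1.06 at Tra/Trd, Trb and Trg, and the block turned no direction. The labels do not say that a number marks a shared litter or day. The deviations of same-numbered libraries had a Pearson correlation of 0.0797 across 210 segments, which does not measure differences between whole libraries. In the whole lists 235434671 and 229967837 bases lay under peaks in wild-type 1 and HDAC7-deficient 1. In wild-type 2 and HDAC7-deficient 2 there were 269133198 and 273728392. Whether same-numbered libraries share a batch was not tested. The lists give no depth, so a missing peak cannot be told apart from too few reads.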
